A study of Gallus gallus with 2 samples.

Results

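The genes described here encode voltage-gated and potassium channels of the chick retina. They were chosen by name, as every symbol that starts with KCN or CACN or that names a sodium channel subunit (SCN, a number, then A or B), and by a minimum of 50 transcript counts summed over both libraries. The selection found 67 genes among 117 matching symbols, in a table of 23967 rows of which 11430 reached the same minimum. Of the 67 genes, 49 belong to potassium channels, 4 to sodium channels and 14 to calcium channels. The members nearest to the limit were KCNV1 with 52 counts and KCNJ12 with 53 counts, and the nearest symbols left out were CACNB4 with 40 counts and KCNJ8 with 39 counts. A further 11 matching symbols had 0 counts in both libraries.

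Retinas were taken from chick embryos at embryonic day 5, electroporated ex vivo and cultured for 48 h. OTX2CRISPR retinas received a plasmid with Cas9 and a guide against OTX2, a homeobox gene needed for photoreceptors, so that the edited cells carry a mixture of alleles and some unedited cells remain. CTRL retinas, the other eyes of the same female embryos, received the same Cas9 plasmid with the guide scaffold and no guide sequence. Both received a reporter in which an OTX2 enhancer drives GFP, and GFP-positive cells of several pooled retinas were sorted and sequenced as 1 single-cell library per condition. Neither condition has a replicate library, so no test between conditions was run. All intervals below are exact 95% intervals that cover counting error only.

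The OTX2CRISPR library held 4953 cell barcodes and 13366081 unique molecular identifiers (UMIs, the counted transcripts), and the CTRL library held 5128 barcodes and 15177210 UMIs. After the study's filters 4928 OTX2CRISPR cells with a median of 2566 UMIs and 5073 CTRL cells with a median of 2779 UMIs were left. The libraries shared 38 barcodes, and doublets were not removed. OTX2 itself was at 761 UMIs per 1000000 UMIs (CPM) in OTX2CRISPR and 1745.1 CPM in CTRL, a count at the 3′ end that does not read the edited site. Markers of cells that should not be in a retinal sort were low in both libraries: blood cell markers had 0 and 2 UMIs in OTX2CRISPR and CTRL, pigment epithelium markers summed to 13.4 and 14.8 CPM, endothelial markers to 17.0 and 16.2 CPM, and microglial markers to 1.67 and 2.84 CPM.

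Cells of both libraries were clustered together without the channel genes and without the class markers, and 9 of 10 clusters took the name of a class, each with all of its 6 to 8 marker genes at least 2-fold above the other cells. Cone-like cells (3 clusters) numbered 109 in OTX2CRISPR and 2403 in CTRL. HC1-like cells (LHX1 horizontal cells) numbered 522 and 87, HC2-like cells (TFAP2C horizontal cells) 210 and 440, and RGC-like cells (retinal ganglion cells) 514 and 150, OTX2CRISPR first in each pair. BRINP2/CRABP1-like cells numbered 1803 in OTX2CRISPR and 29 in CTRL, so this class is nearly 1 library and its CTRL values are not used. Restricted and multipotent progenitor cells (RPC-like) numbered 530 and 317 in OTX2CRISPR and 1286 and 341 in CTRL. A cluster led by THRSPB, NPY and PRSS56, with 923 OTX2CRISPR and 337 CTRL cells, stayed unnamed. Rankings of classes leave this cluster out, and its level is given where it changes a lead.

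Channels of these families set the membrane potential of a neuron and shape its spikes and its transmitter release. Sodium channel alpha subunits carry the fast inward current of the spike, calcium channel pores admit calcium at rest, during spikes and at synapses, and potassium channels bring the membrane back towards rest. Retinal ganglion cells fire spikes, whereas cones and horizontal cells answer light with graded potentials, and progenitors have not yet built most of this machinery. Roles named below are those known from mammals. The counts come from transcript 3′ ends, so a level is compared between cells for one gene and not between genes.

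Channel genes differed between the 2 libraries in both directions, and more of them were higher in OTX2CRISPR. Of the 67 genes, 26 (38.8%) were at least 2-fold higher in OTX2CRISPR, while 7.31% of all 11430 genes were. In the other direction 9 (13.4%) were at least 2-fold lower, while 4.71% of all genes were. Each of those 26 and 9 intervals lay on one side of 0, and the other 32 genes were within 2-fold. The median log2 ratio was 0.63 over the channel genes and 0.04 over all genes. Summed over the 67 genes, the level was 1457.4 CPM in OTX2CRISPR and 1026.7 CPM in CTRL. In a whole library, fewer cells of a type and less RNA per cell cannot be told apart, and the class sizes given above differ between the libraries.

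**Figure D1:**
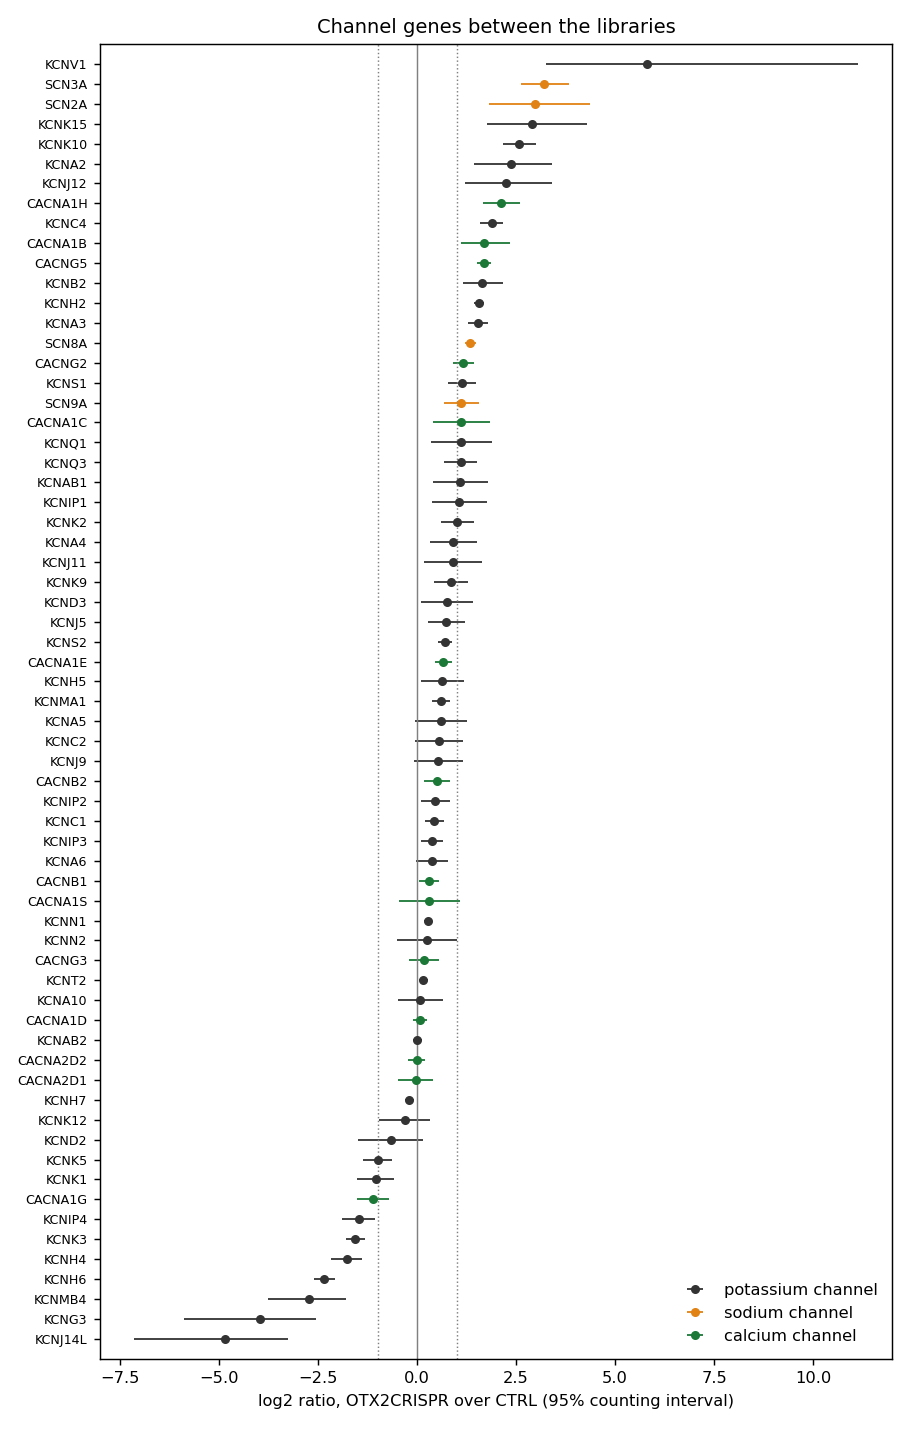
Log2 ratio of the level in OTX2CRISPR over that in CTRL for 65 of the 67 channel genes (points), with 95% counting intervals (lines); the horizontal axis is the log2 ratio, dotted lines mark 2-fold, and colours mark potassium, sodium and calcium channel genes. All 4 sodium channel genes lie to the right of the upper 2-fold line, and the genes furthest to the left are potassium channel genes.

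The genes lower in OTX2CRISPR included several potassium channel genes that were highest in CTRL cones among the named classes. KCNH6, an ERG-type potassium channel, was at 10.8 CPM in OTX2CRISPR and 54.9 CPM in CTRL, a log2 ratio of -2.34 (-2.61 to -2.08). KCNH4, of the related ELK type, was at 5.38 and 18.4 CPM (log2 ratio -1.78, -2.17 to -1.39). KCNK3, a leak channel inhibited by acid, was at 13.6 CPM in OTX2CRISPR and 39.9 CPM in CTRL (-1.56, -1.81 to -1.31). KCNIP4, a calcium-binding partner of A-type channels, and CACNA1G, the pore of a low-threshold T-type calcium channel, had log2 ratios of -1.47 (-1.90 to -1.07) and -1.11 (-1.53 to -0.70). The ratios furthest below 0 came from sparse genes. KCNJ14L had 3 UMIs in OTX2CRISPR cells and 96 in CTRL cells (log2 ratio -4.84, -7.14 to -3.25). KCNG3, a subunit that forms no channel on its own, had 4 and 70 UMIs (-3.97, -5.88 to -2.55), KCNMB4, a partner of the large-conductance calcium-activated channel, had 11 and 81 UMIs, and KCNK1 had 57 and 131 UMIs. Not all of these were led by cones. In CTRL KCNMB4 was at 29.1 CPM in HC2-like and 5.9 CPM in cone-like cells. KCNK1 was at 16.7 CPM in restricted RPC-like and 7.18 CPM in cone-like cells, and KCNIP4 at 18.6 CPM in multipotent RPC-like and 18.2 CPM in cone-like cells.

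All 4 sodium channel alpha genes were at least 2-fold higher in OTX2CRISPR, against 7.31% of all genes. SCN8A, the alpha subunit of nodes and axon initial segments, was at 115 CPM in OTX2CRISPR and 45.4 CPM in CTRL (log2 ratio 1.34, 1.21 to 1.48). SCN3A, an alpha subunit of embryonic neurons, was at 16.8 CPM in OTX2CRISPR and 1.83 CPM in CTRL (3.20, 2.62 to 3.84). SCN2A had 49 UMIs in OTX2CRISPR and 7 in CTRL, and SCN9A had 128 and 66. None of the 3 symbols for sodium channel beta subunits reached 50 UMIs, and the highest, SCN2B, had 20.

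Potassium channel genes of repolarisation and of the resting potential were also among the higher ones. KCNH2, the ERG channel that also repolarises heart muscle, was at 157 CPM in OTX2CRISPR and 53.2 CPM in CTRL (1.57, 1.45 to 1.69). KCNA3, a delayed rectifier of the Shaker family, was at 34.4 CPM in OTX2CRISPR and 11.9 CPM in CTRL (1.53, 1.28 to 1.79), and KCNC4, of a family of fast rectifiers, had a log2 ratio of 1.88 (1.60 to 2.17). KCNQ3, a subunit of the M-current that restrains repetitive firing, had a log2 ratio of 1.10 (0.69 to 1.51). KCNK10 and KCNK2, leak channels opened by stretch, had log2 ratios of 2.58 (2.18 to 2.99) and 1.02 (0.61 to 1.43). KCNS1, a subunit that modifies other delayed rectifiers, had a log2 ratio of 1.13 (0.78 to 1.48). KCNV1, another subunit that needs a partner, had 50 UMIs in OTX2CRISPR and 1 in CTRL, a log2 ratio of 5.81 whose interval ran from 3.26 to 11.1.

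Of the 14 calcium channel genes, 5 were at least 2-fold higher, against 7.31% of all genes, and 1 was lower, against 4.71%. CACNA1H, another T-type pore, was at 14.6 CPM in OTX2CRISPR and 3.38 CPM in CTRL (2.11, 1.66 to 2.59), the opposite direction to CACNA1G of the same subfamily. CACNG5 and CACNG2, named as gamma subunits and known in neurons as partners of AMPA-type glutamate receptors, had log2 ratios of 1.69 (1.52 to 1.85) and 1.17 (0.89 to 1.44). CACNA1B, the pore of the N-type channel of presynaptic endings, had a log2 ratio of 1.70 (1.10 to 2.34). CACNA1D, an L-type pore, was within 2-fold at 38.4 CPM in OTX2CRISPR and 36.4 CPM in CTRL (0.08, -0.10 to 0.26), as was CACNA2D2, an auxiliary subunit, at 25.2 and 25.5 CPM. KCNAB2, an auxiliary subunit of Shaker-type channels, was at 83.2 CPM in OTX2CRISPR and 82.8 CPM in CTRL. CACNB1, an auxiliary beta subunit (0.30, 0.06 to 0.55), KCNIP3, a relative of KCNIP4 (0.38, 0.10 to 0.66), KCND3, an A-type channel (0.75, 0.09 to 1.42), and KCNJ5, a G-protein-gated inward rectifier (0.73, 0.27 to 1.21), were within 2-fold too, with intervals above 0.

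Where the counts came from differed between the libraries. In OTX2CRISPR the BRINP2/CRABP1-like cells gave 52.2% of KCNH2 counts, 45.9% of SCN8A counts, 47.4% of CACNG5 counts and 51.1% of KCNK10 counts, and this class held 36.6% of the cells. In CTRL the cone-like cells gave 91.4% of KCNH6 counts and held 47.4% of the cells. With cone-like and BRINP2/CRABP1-like cells left out of both libraries, 22 of the 67 genes were at least 2-fold higher in OTX2CRISPR, against 5.43% of all genes, and 3 were lower, against 2.47% of all genes. In those remaining cells the log2 ratio was -0.01 for KCNH6 and -0.34 for KCNK3, and it was 1.01 for KCNH2 and 2.28 for SCN3A. Class sizes still differed there, with 522 and 87 HC1-like, 514 and 150 RGC-like and 530 and 1286 restricted RPC-like cells, OTX2CRISPR first. Within HC1-like and RGC-like cells the log2 ratio of SCN3A was -0.20 (-1.13 to 0.85) and 1.16 (0.14 to 2.36). The part of cell shares in these values was not tested.

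By class, the summed level of the 67 genes was highest in RGC-like cells, at 2068.3 CPM (2000.7 to 2137.7) in OTX2CRISPR and 1805.6 CPM (1698.2 to 1918) in CTRL. In OTX2CRISPR it was 1758.9 CPM in HC2-like, 1713.4 CPM in BRINP2/CRABP1-like, 1677 CPM in HC1-like and 1141.8 CPM in cone-like cells, and the first 3 of these had overlapping intervals. In CTRL it was 1550.7 CPM in HC2-like, 1374.4 CPM in HC1-like and 1171.2 CPM in cone-like cells. Restricted RPC-like cells were at 895 CPM in OTX2CRISPR and 706 CPM in CTRL, and multipotent RPC-like cells were the lowest class of both libraries, at 481 CPM (439 to 527) in OTX2CRISPR and 526 CPM (485 to 570) in CTRL.

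**Figure D2:**
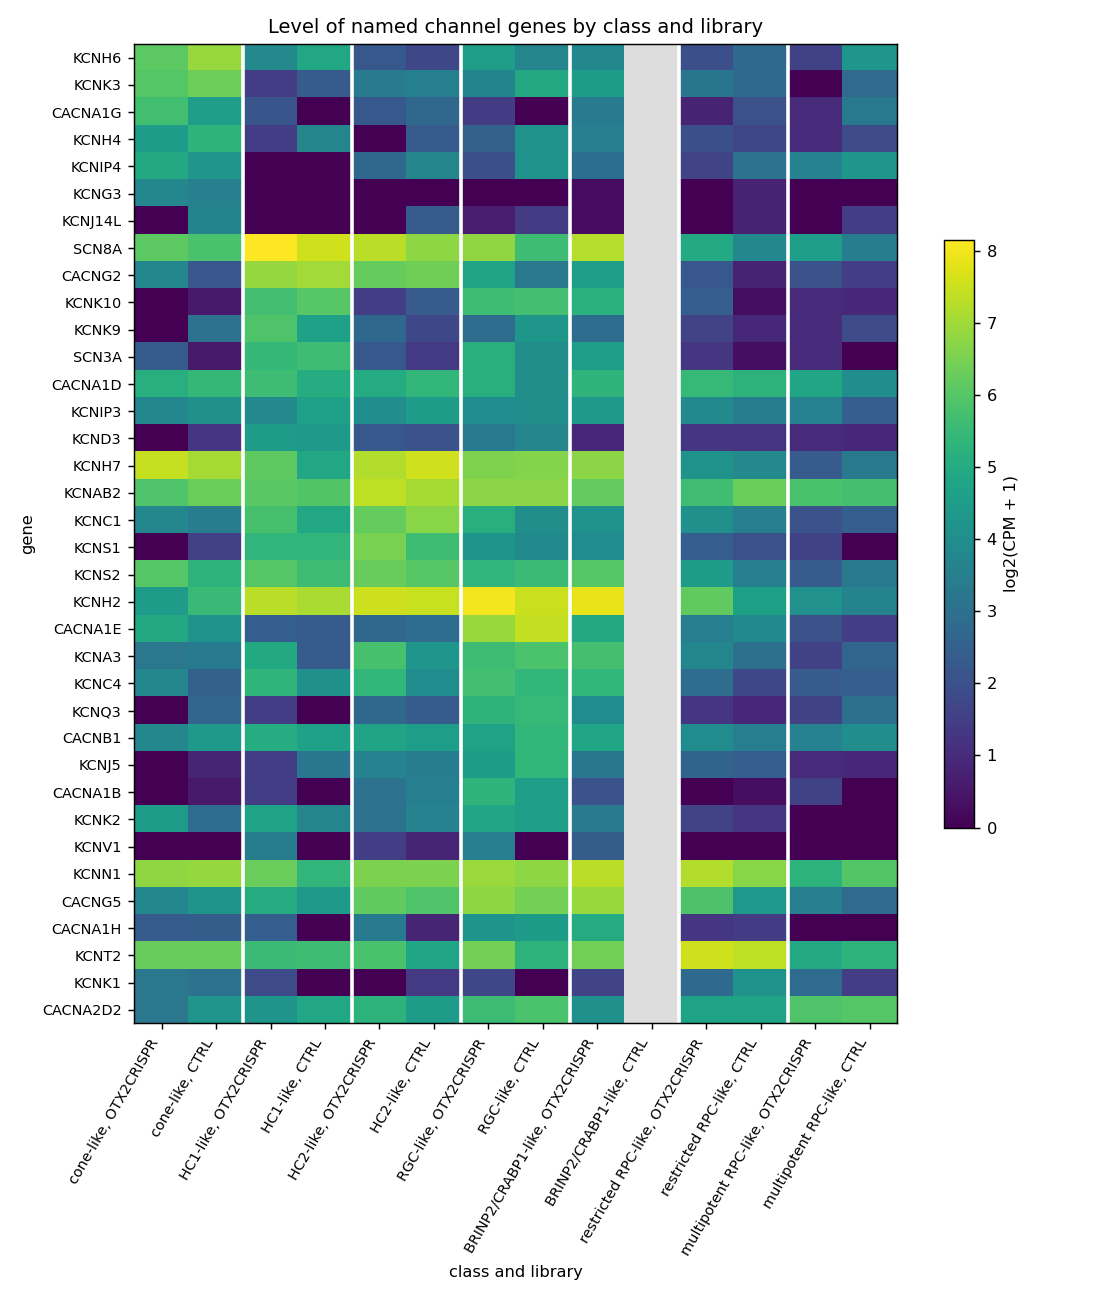
Level of channel genes named by the rule of the methods, as log2(CPM + 1), in rows, against class and library in columns, with OTX2CRISPR left of CTRL within each class; grey marks the BRINP2/CRABP1-like class of CTRL, which held 29 cells. KCNH6 and KCNH4 are brightest in cone-like cells, SCN8A in HC1-like cells, CACNA1E in RGC-like cells and KCNT2 in restricted RPC-like cells.

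Each neuron class was set against the progenitor-like cells of its own library, taken as restricted and multipotent RPC-like cells together, over genes with at least 50 UMIs in the pair. In RGC-like cells of OTX2CRISPR 22 of 29 channel genes were at least 2-fold higher than in the progenitor-like cells, against 16.7% of all genes, and in RGC-like cells of CTRL 11 of 22 were, against 18.1%. In BRINP2/CRABP1-like cells of OTX2CRISPR 23 of 33 were higher, against 15.4% of all genes. In HC1-like cells of OTX2CRISPR 15 of 22 were higher, against 13.7% of all genes, and in those of CTRL 9 of 20, against 14.5%. Of these 9 genes, 6 had intervals above 0. In HC2-like cells the counts were 8 of 14 in OTX2CRISPR, against 11.5% of all genes, and 14 of 24 in CTRL, against 12.3%. Cone-like cells had 2 of 10 in OTX2CRISPR, against 8.13% of all genes, and 15 of 33 in CTRL, against 11.5%.

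In the other direction, the channel genes at least 2-fold lower than in the progenitor-like cells were counted in the same pairs. In RGC-like cells it was 1 of 29 in OTX2CRISPR, against 13.4% of all genes, and 4 of 22 in CTRL, against 18.2%. In BRINP2/CRABP1-like cells of OTX2CRISPR it was 2 of 33, against 11.7%. In HC1-like cells 3 of 22 were lower in OTX2CRISPR, against 10.9%, and 4 of 20 in CTRL, against 14.5%. Of these 4 genes, 3 had intervals below 0. In HC2-like cells it was 2 of 14 in OTX2CRISPR, against 16.5%, and 3 of 24 in CTRL, against 18.6%. In the 109 cone-like cells of OTX2CRISPR 3 of 10 were lower, against 14.5%, and only 1 of these 3 had an interval below 0. In cones of CTRL 1 of 33 was lower, against 9.73%. A gene could enter a pair through its counts in the neuron class alone, and the remaining members had too few UMIs to enter. Comparisons within a library share their progenitor cells. Progenitor-like cells were deeper than most neuron classes, with a median of 2666 UMIs in OTX2CRISPR and 3229 UMIs in CTRL, and 74.7% and 82.7% of them were in S or G2/M phase by their transcripts.

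**Figure D3:**
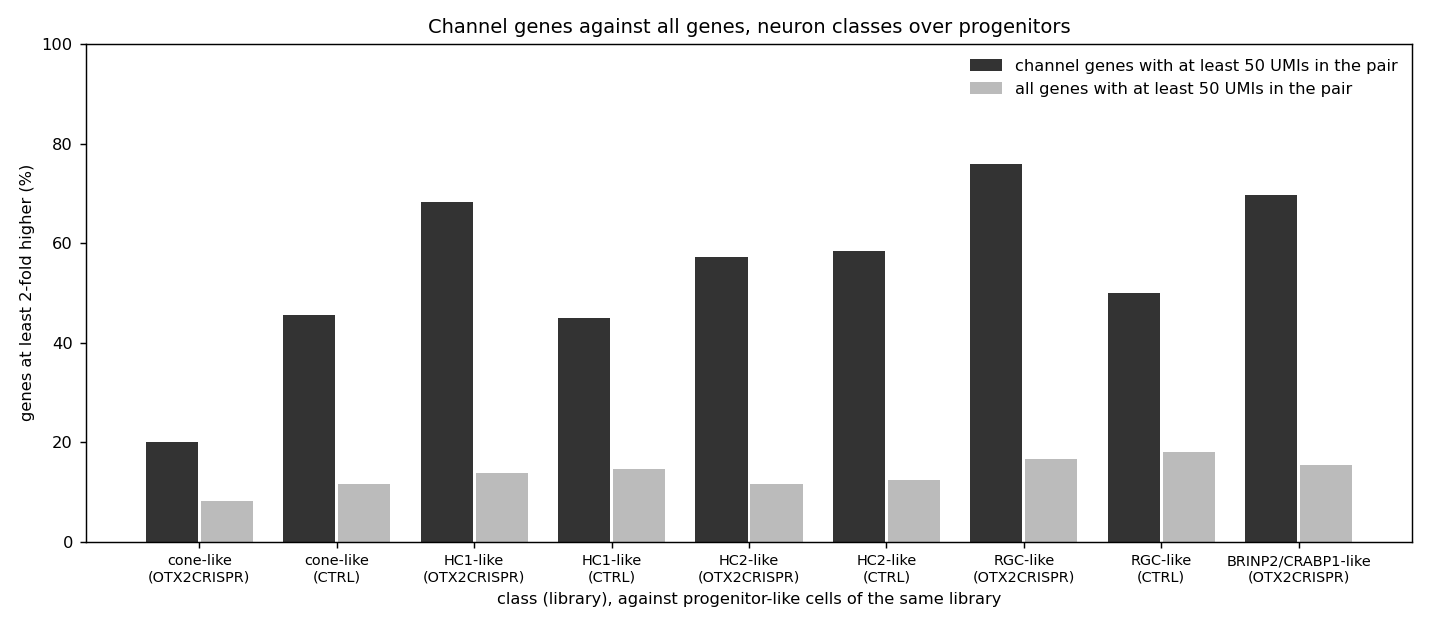
Percentage of genes at least 2-fold higher in each neuron class than in the progenitor-like cells of the same library (vertical axis), for channel genes (dark bars) and for all genes (light bars), with at least 50 UMIs in the pair and OTX2CRISPR left of CTRL within each class. The dark bars lie between 20% in cone-like cells of OTX2CRISPR, from 10 genes, and 75.9% in RGC-like cells of OTX2CRISPR, and the light bars between 8.13% and 18.1%.

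Several potassium channel genes were at their highest named-class level in cone-like cells of CTRL. KCNH6 was at 118 CPM in cone-like and 8.53 CPM in progenitor-like cells (log2 ratio 3.79, 3.36 to 4.26). KCNK3 was at 80.9 and 6.12 CPM (3.73, 3.22 to 4.28), KCNH4 at 38.0 and 2.41 CPM (3.98, 3.18 to 4.91) and KCNH7, the third ERG channel, at 132 and 12.4 CPM (3.41, 3.05 to 3.79), cone-like cells first. KCNG3 was at 10.7 CPM in cone-like and 0.556 CPM in progenitor-like cells, and KCNJ14L at 11.5 and 0.927 CPM. Compared with the next highest named class of CTRL, KCNG3 was 15.2-fold and KCNH6 4.18-fold higher in cone-like cells. KCNK3 was 2.78-fold, CACNA1G 2.53-fold and KCNH4 2.22-fold higher. The next classes held 3, 7, 17, 10 and 10 UMIs of these genes, in the same order. The log2 intervals lay above 0, from 2.32 to 6.24 for KCNG3 and from 0.24 to 2.23 for KCNH4. The 87 HC1-like cells of CTRL had 0 UMIs of KCNG3 and of KCNJ14L, which allows up to 14.9 CPM, so a lead over them was not shown. KCNJ14L was 2.84-fold above the next named class, but the unnamed cluster of CTRL, with 13 UMIs or 13.7 CPM (7.30 to 23.5), did not lie below the cones at 11.5 CPM. KCNH7 was not led by the pooled cone-like cells of CTRL, since HC2-like cells of CTRL were at 187 CPM. However, the cone homotypical progenitor-like cluster of CTRL, counted among the cones, was at 234 CPM (217 to 253). In OTX2CRISPR cone-like cells were at 173 CPM and HC2-like cells at 147 CPM, and the interval of that log2 ratio of 0.24 included 0 (-0.34 to 0.80).

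The cone marker RBP4 was also counted outside the cone-like cells, at levels that differed between libraries and classes. In OTX2CRISPR it was at 22.0 CPM in HC1-like, 3.71 CPM in HC2-like, 4.68 CPM in RGC-like, 61.0 CPM in BRINP2/CRABP1-like and 64.5 CPM in progenitor-like cells, against 7823 CPM in cone-like cells. In CTRL it was at 287 CPM in HC1-like, 235 CPM in HC2-like, 80.6 CPM in RGC-like and 335 CPM in progenitor-like cells, against 9421 CPM in cone-like cells. The source of these counts, and their part in the levels of cone channel genes in other classes, was not tested.

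Within the cones, the 3 clusters differed in their channels. PR2-like cells, which carry the red opsin gene OPN1LW, had 322 CPM (293 to 354) of KCNH6, PR1-like cells had 111 CPM (96.9 to 126), and cone homotypical progenitor-like cells, 90.3% of which were in S or G2/M phase, had 25.4 CPM (19.9 to 32.0). After each cell was thinned to 1000 UMIs, a KCNH6 UMI was found in 24.9% (21.4 to 28.6%) of PR2-like cells of CTRL and in 0.232% of HC2-like cells of CTRL. Without thinning these shares were 44.7% and 0.682%, at median depths of 2152.5 and 2730.5 UMIs. PR2-like cells were at least 2-fold above PR1-like cells for 5 of 21 channel genes, against 6.39% of all genes, and at least 2-fold below for 3 of 21, against 4.03%.

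Among the genes higher in PR2-like cells were KCNH6, KCNH4 (84.9 and 26.6 CPM, log2 ratio 1.67, 1.20 to 2.16), KCNS2 (73.2 and 33.9 CPM, 1.11, 0.66 to 1.57) and CACNA1G (43.2 and 20.3 CPM, 1.09, 0.49 to 1.69), PR2-like cells first. KCNS2, like KCNS1, is a modifying subunit. The genes lower in PR2-like than in PR1-like cells were CACNG5 (5.86 and 40.2 CPM, -2.78, -4.04 to -1.73), CACNA1E, an R-type calcium channel pore (7.32 and 38.7 CPM, -2.40, -3.52 to -1.45), and KCNG3 (6.59 and 23.2 CPM, -1.82, -3.03 to -0.78). KCNH7 went the same way as the other ERG channels between these clusters, at 67.3 CPM in PR2-like and 34.4 CPM in PR1-like cells (0.97, 0.51 to 1.44). In the cycling cluster KCNH7 ran against them: it was highest there, at 234 CPM (217 to 253), while KCNH6 and KCNH2 were lowest there, at 25.4 and 15.2 CPM.

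**Figure D4:**
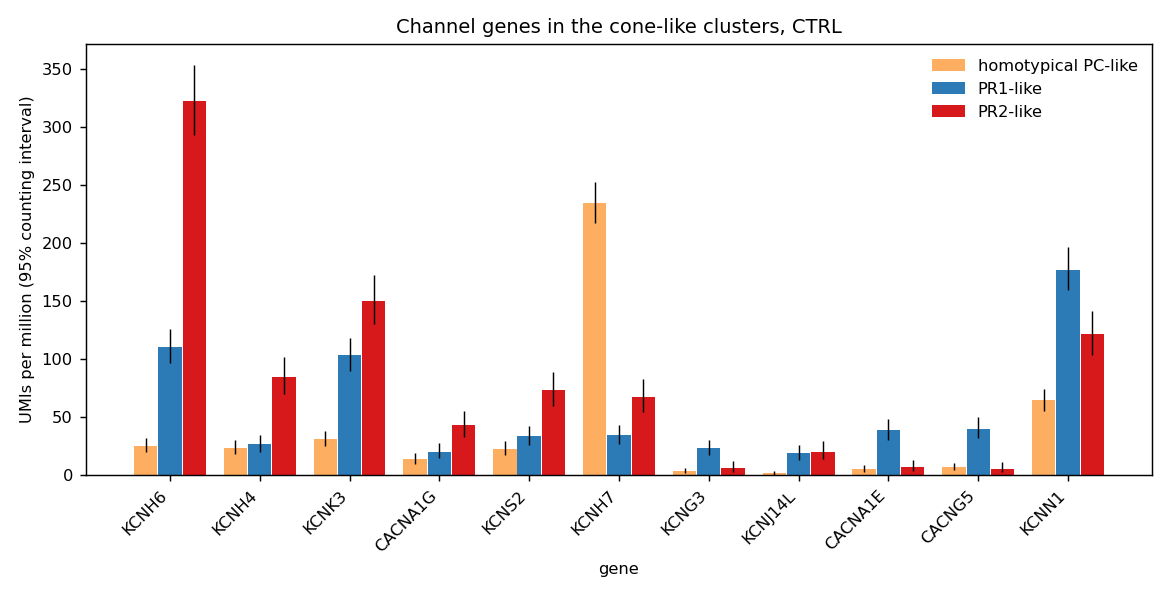
Level in CPM (bars) with 95% counting intervals (lines) of 11 channel genes in the 3 cone-like clusters of CTRL, with cone homotypical progenitor-like, PR1-like and PR2-like cells from left to right for each gene. KCNH6 reaches 322 CPM in PR2-like cells, and KCNH7 reaches 234 CPM in the homotypical progenitor-like cells.

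The 109 cone-like cells left in OTX2CRISPR had 16 UMIs of KCNH6, or 67.7 CPM (38.7 to 110), and the CTRL cones had 118 CPM. KCNK3 was at 63.4 CPM (35.5 to 105) in OTX2CRISPR cones and 80.9 CPM in CTRL cones, and KCNH7 at 173 CPM (124 to 235) and 132 CPM. Between the libraries 1 of 27 channel genes was at least 2-fold higher in cone-like cells of OTX2CRISPR, against 3.65% of all genes, and 2 of 27 were lower, against 8.42% of all genes. The higher gene was CACNA1G (50.7 and 22.3 CPM, log2 ratio 1.18, 0.20 to 2.03), which was lower in the whole OTX2CRISPR library. The intervals of the 2 lower genes, KCNH2 and CACNA2D2, included 0. KCNJ14L had 0 UMIs in OTX2CRISPR cones, which allows up to 12.7 CPM, and 11.5 CPM in CTRL cones, so that a difference was not detectable at this depth.

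KCNK10, SCN3A and KCNK9 were the channel genes at least 2-fold higher in HC1-like than in HC2-like cells of OTX2CRISPR. They entered this pair almost only through HC1-like cells, with 58, 48 and 67 UMIs there and 1, 2 and 3 UMIs in HC2-like cells. In OTX2CRISPR, HC1-like cells had 51.1 CPM of KCNK10 and HC2-like cells 1.86 CPM (log2 ratio 4.78, 2.25 to 10.1, with 1 UMI in HC2-like cells). SCN3A was at 42.3 and 3.71 CPM (3.51, 1.58 to 6.60), and KCNK9, a leak channel related to KCNK3, at 59.0 and 5.57 CPM (3.41, 1.80 to 5.72), HC1-like cells first. In CTRL the same genes had too few UMIs in the pair for a comparison, with 64.7, 48.5 and 24.3 CPM for KCNK10, SCN3A and KCNK9 in the 87 HC1-like cells and 4.05, 1.62 and 2.43 CPM in HC2-like cells. These 3 genes were picked by their OTX2CRISPR levels, and their CTRL levels in HC1-like cells rest on 16, 12 and 6 UMIs.

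After thinning to 1000 UMIs, a KCNK9 UMI was found in 5.47% (3.66 to 7.81%) of HC1-like and 0.966% (0.117 to 3.45%) of HC2-like cells of OTX2CRISPR, and without thinning in 11.1% and 1.43%, at median depths of 2058.5 and 2452 UMIs. SCN8A was highest of all classes in HC1-like cells of both libraries. In OTX2CRISPR, HC1-like cells had 283 CPM (253 to 315) of SCN8A and HC2-like cells 156 CPM (124 to 193), and in CTRL they had 186 CPM (136 to 248) and 108 CPM (90.1 to 128).

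On the other side, HC2-like cells had more of KCNAB2, KCNH7 and CACNG5 in both libraries. For HC1-like over HC2-like cells KCNAB2 had a log2 ratio of -1.33 (-1.79 to -0.86) in OTX2CRISPR and -1.12 (-1.99 to -0.36) in CTRL, KCNH7 had -1.08 (-1.54 to -0.61) and -2.72 (-4.05 to -1.66), and CACNG5 had -1.15 (-1.85 to -0.46) and -1.55 (-3.21 to -0.26). For KCNC1, a fast rectifier, HC1-like cells of CTRL had 28.3 CPM and HC2-like cells of CTRL 104 CPM, while in OTX2CRISPR they had 53.7 and 74.2 CPM. In OTX2CRISPR 3 of 20 channel genes were at least 2-fold higher in HC1-like cells, against 7.69% of all genes, and 4 of 20 were lower, against 2.55%. In CTRL 0 of 12 were higher, against 7.45% of all genes, and 5 of 12 were lower, against 6.52%. Of HC1-like cells 40.4% in OTX2CRISPR and 44.8% in CTRL were in S or G2/M phase, and of HC2-like cells 20% and 15.5%, so that phase moves with the class.

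**Figure D5:**
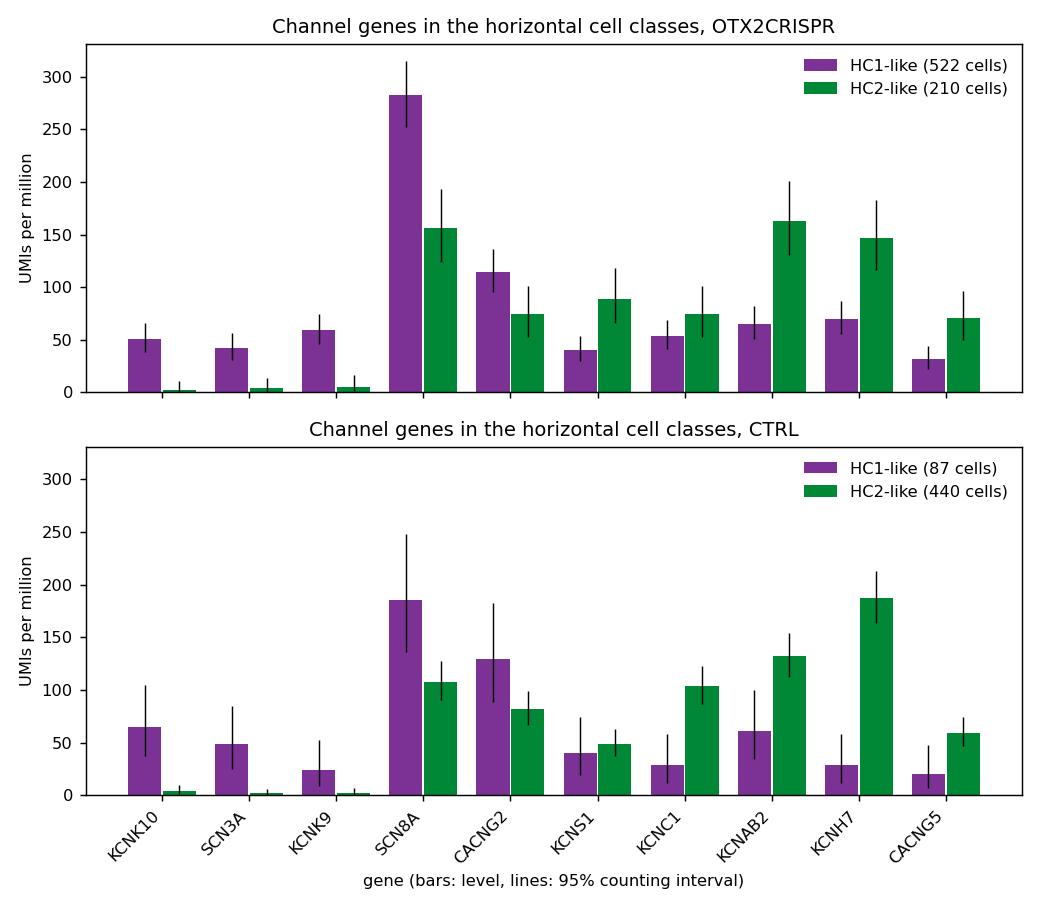
Level in CPM (bars) with 95% counting intervals (lines) of 10 channel genes in HC1-like and HC2-like cells, with OTX2CRISPR in the upper panel and CTRL in the lower panel. KCNK10, SCN3A and KCNK9 are higher in HC1-like cells of both panels, and KCNAB2, KCNH7 and CACNG5 are higher in HC2-like cells of both panels.

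CACNA1B, CACNA1E and KCNQ3 were highest in RGC-like cells of both libraries. CACNA1B was at 38.1 CPM in RGC-like and 0.854 CPM in progenitor-like cells of OTX2CRISPR (log2 ratio 5.48, 3.57 to 8.55, with 2 UMIs in progenitor-like cells), and 5.13-fold above the next named class. In CTRL CACNA1B was at 22.3 CPM in RGC-like and 10.5 CPM in HC2-like cells, with 13 UMIs in each class. The interval of that log2 ratio of 1.08 included 0 (-0.14 to 2.31). For CACNA1E, RGC-like cells had 117 CPM (101 to 134) in OTX2CRISPR and 166 CPM (135 to 203) in CTRL, with 29.6 CPM and 16.8 CPM in the cone-like cells, the next named class, and 25.8 CPM and 32.7 CPM in the unnamed cluster. KCNQ3 was at 38.6 CPM in RGC-like cells of OTX2CRISPR and 42.9 CPM in those of CTRL. KCNH2 was at 258 and 180 CPM, and in OTX2CRISPR its level in BRINP2/CRABP1-like cells was 235 CPM. A CACNA1B UMI was found in 2.97% (1.67 to 4.85%) of RGC-like and 0.34% of multipotent RPC-like cells of OTX2CRISPR after thinning, and in 8.37% and 0.631% without it, at median depths of 3260 and 3076 UMIs.

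The BRINP2/CRABP1-like cells of OTX2CRISPR were then set against RGC-like cells of the same library. Of the channel genes with at least 50 UMIs in the pair, 10 of 35 channel genes were at least 2-fold lower, against 4.58% of all genes, and 1 of 35 was higher, against 5.3%. CACNA1B was at 3.25 CPM in BRINP2/CRABP1-like and 38.1 CPM in RGC-like cells (log2 ratio -3.55, -4.47 to -2.72). KCNB2, a delayed rectifier, was at 4.99 and 28.1 CPM (-2.49, -3.28 to -1.75), and CACNA1E at 29.5 and 117 CPM (-1.98, -2.31 to -1.66), BRINP2/CRABP1-like cells first. KCNQ3, KCNK2, KCNJ5, SCN9A and CACNA2D2 were also among the lower genes. KCNH2 (-0.13, -0.29 to 0.03) was within 2-fold, as was SCN8A at 151 CPM in BRINP2/CRABP1-like and 109 CPM in RGC-like cells (0.48, 0.24 to 0.72).

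The gene higher in BRINP2/CRABP1-like than in RGC-like cells was KCNH4 (10.2 and 4.68 CPM, log2 ratio 1.12, 0.03 to 2.42), and KCNK3 missed the 2-fold limit (21.9 and 11.7 CPM, 0.90, 0.20 to 1.68). Both are genes of the CTRL cones, where they stood at 38.0 and 80.9 CPM. RBP4 was at 61.0 CPM in BRINP2/CRABP1-like and 4.68 CPM in RGC-like cells, and its part in these values was not tested. CACNA1H was, of the genes with at least 50 UMIs in this class, the one in which it led most, at 31.5 CPM in BRINP2/CRABP1-like and 17.6 CPM in RGC-like cells, 1.79-fold. A CACNA1H UMI was found in 3.26% (2.48 to 4.19%) of BRINP2/CRABP1-like and 0% of multipotent RPC-like cells after thinning (at most 1.25%), and in 7.10% and 0% without it, at median depths of 2457 and 3076 UMIs. CACNG5 and KCNN1, a small-conductance calcium-activated channel, were at 118 and 158 CPM in BRINP2/CRABP1-like cells and within 2-fold of the RGC-like level.

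A few channel genes ran the other way and were highest in progenitors. KCNT2, a sodium-activated potassium channel, was at 188 CPM (165 to 212) in restricted RPC-like cells of OTX2CRISPR and 164 CPM (152 to 177) in those of CTRL, and at 30.7 and 37.1 CPM in multipotent RPC-like cells. The lead over the next named class was 2.20-fold in each library, but the unnamed cluster was at 152 CPM (138 to 168) in OTX2CRISPR and 46.4 CPM (33.7 to 62.3) in CTRL. Among the cones, the cone homotypical progenitor-like cluster was also closer than the pooled cone-like cells. It was at 107 CPM (95.6 to 120) in CTRL and, in 36 cells, at 138 CPM (75.3 to 231) in OTX2CRISPR. A KCNT2 UMI was found in 13.3% (11.5 to 15.3%) of restricted and 3.34% of multipotent RPC-like cells of CTRL after thinning, and in 39.1% and 10.6% without it, at median depths of 3204 and 3324 UMIs. KCNK5, an alkali-activated leak channel of epithelia, was at 25.2 CPM in progenitor-like cells of OTX2CRISPR and 28.9 CPM in those of CTRL. It had 0 UMIs in HC1-like cells of OTX2CRISPR, 9.54-fold lower than the progenitor-like cells when set to the floor of 3 UMIs. The interval of that log2 ratio reached up to -2.91. KCNK5 also had 0 UMIs in HC2-like cells of CTRL, 11.9-fold lower at the same floor, with an interval up to -3.26.

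CACNA2D2 was highest in multipotent RPC-like cells, at 58.2 CPM (44.1 to 75.5) in OTX2CRISPR and 62.8 CPM (49.0 to 79.2) in CTRL, but RGC-like cells at 47.4 and 56.6 CPM did not differ from them beyond counting error. KCNK1, a weakly conducting leak channel, was 2.32-fold higher in restricted RPC-like cells of CTRL than in the next named class, the cone-like cells, at 16.7 CPM and 7.18 CPM, and the unnamed cluster of CTRL was at 7.39 CPM.

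Between libraries and within a named class, the share of channel genes that differed was largest in restricted RPC-like cells. There 5 of 18 were at least 2-fold higher in OTX2CRISPR, against 2.72% of all genes, and 1 of 18 was lower, against 2.14%. CACNG5 was at 57.9 CPM in OTX2CRISPR and 19.5 CPM in CTRL (log2 ratio 1.57, 1.11 to 2.04), KCNH2 at 70.4 and 23.7 CPM (1.57, 1.15 to 1.99), SCN8A at 30.8 and 12.9 CPM (1.26, 0.64 to 1.86), KCNS2 at 21.3 and 10.3 CPM (1.04, 0.31 to 1.75) and KCNA6, a Shaker-family channel, at 18.3 and 6.33 CPM (1.53, 0.69 to 2.37). KCNK1 was the lower gene, at 5.87 CPM in OTX2CRISPR and 16.7 CPM in CTRL (-1.51, -2.77 to -0.45). Of these cells 75.7% in OTX2CRISPR and 86.8% in CTRL were in S or G2/M phase, and the part of that difference in these values was not tested. In multipotent RPC-like cells 0 of 5 were at least 2-fold higher, against 0.342% of all genes, and 0 of 5 lower, against 0.627%.

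In RGC-like cells 6 of 28 channel genes were at least 2-fold higher in OTX2CRISPR, against 2.69% of all genes, and 0 of 28 were lower, against 1.02%. SCN8A was at 109 CPM in OTX2CRISPR and 48.0 CPM in CTRL (1.18, 0.60 to 1.81), KCNT2 at 85.5 and 37.7 CPM (1.18, 0.53 to 1.90) and SCN3A at 34.5 and 15.4 CPM (1.16, 0.14 to 2.36). CACNG2, CACNA1D and KCNC1 were the other 3, on 5 to 9 UMIs in CTRL, and SCN3A also had only 9 UMIs there. Without the 4% of cells with the most UMIs in each library, 3 channel genes differed by at least 2-fold. The share of all genes was not counted at that setting. RGC-like cells had a median of 3260 UMIs in OTX2CRISPR and 3839.5 UMIs in CTRL.

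In HC1-like cells 2 of 15 channel genes were at least 2-fold higher in OTX2CRISPR, against 3.95% of all genes, and 0 of 15 lower, against 1.03%. They were KCNH7 (69.6 and 28.3 CPM, 1.30, 0.19 to 2.66) and KCNK9 (59.0 and 24.3 CPM, 1.28, 0.08 to 2.78), on 7 and 6 UMIs in CTRL. In HC2-like cells 2 of 14 were higher, against 2.26% of all genes, and 0 of 14 lower, against 1.19%. They were KCNA3 (53.8 and 18.6 CPM, 1.53, 0.69 to 2.39) and KCNT2 (55.7 and 27.5 CPM, 1.02, 0.26 to 1.77). SCN8A was 1.52-fold and 1.45-fold higher in HC1-like and HC2-like cells of OTX2CRISPR, with intervals above 0 on the log2 scale in both classes.

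Other genes of excitability were read from a list of 37 symbols for pacemaker, cyclic nucleotide-gated and chloride channels, sodium leak channel subunits, channel anchors and ion pumps. Of these 33 had a row and 25 reached 50 UMIs, of which 9 were at least 2-fold higher in OTX2CRISPR, against 7.31% of all genes, and 2 were lower, against 4.71%. Their median log2 ratio was 0.39, and that of all genes 0.04. The 2 lower genes were CNGA3, the cone light-response channel, at 2.12 CPM in OTX2CRISPR and 19.7 CPM in CTRL (-3.22, -3.83 to -2.65), and HCN2, a pacemaker channel, at 11.8 and 29.2 CPM (-1.30, -1.58 to -1.04). Both were highest among the classes compared in CTRL cones, at 34.0 and 55.5 CPM. Among the higher ones were UNC79, a subunit of the sodium leak channel complex, at 74.2 and 17.4 CPM (2.09, 1.89 to 2.30), its pore NALCN at 4.62 and 1.02 CPM (2.19, 1.35 to 3.11), and ANK3, the ankyrin that anchors sodium channels, at 40.7 and 12.4 CPM (1.72, 1.47 to 1.97). UNC79 was at 162 CPM in BRINP2/CRABP1-like cells of OTX2CRISPR and 35.7 CPM in RGC-like cells of OTX2CRISPR.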

How the data were processed

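Counts per gene and cell were deposited by the authors as 1 matrix per library, which they made with Cell Ranger (version 3.0.2 per the file headers) on chick assembly GRCg6a, and every value used here is such a count of UMIs. Cells with more than 200 and fewer than 2500 genes, under 0.4% mitochondria-related and under 50% ribosomal counts were kept, as in the study. Both libraries were clustered in Seurat 5.3.0 (R 4.3.3) on 33 principal components at resolution 0.6, with UMIs, gene class shares and cell cycle scores regressed out, and with channel genes and class markers left out of the variable genes. A cluster took a class name when at least 3 of its markers were raised by 1 or more on the log2 scale and their mean led that of any other class by 1, a margin set after the data had been seen. Among the genes that led a cluster, markers of another class could not outnumber its own. The cone classes were not held to these rules against each other, and a cone cluster took the cone class with the highest mean. Levels are UMIs per 1000000 UMIs (CPM) over summed cells. Ratios were called at 2-fold among genes with at least 50 UMIs, with exact Poisson, binomial and conditional binomial 95% intervals (Python 3.11.15, scipy 1.17.1). That minimum was summed over both groups compared, so in any comparison a gene could enter through 1 group alone. A group at 0 was set to a floor of 3 UMIs. Cells were thinned to 1000 UMIs for shares, and cells with fewer UMIs were left out of these shares. Classes needed 50 cells in a library to be compared. Progenitor-like cells are the restricted and multipotent RPC-like classes.

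Named genes were every member with at least 200 UMIs and a 2-fold library difference, up to 4 members per class with the largest lead over the next class, the member with the most UMIs in each family and those nearest the limit of 50 UMIs. KCNJ8, KCNJ12, KCNMB4, SCN2A, SCN9A, SCN2B, KCNB2, KCNA6 and KCNK5 are named besides, after their values were seen. The members, lists and tests were chosen with earlier results of these data known. Alternatives were other scaling, filters, cell weights, UMI minimums and cluster settings. The counting steps were tested on simulated data. Gene coordinates and sequences were not used here. Values of 2 members counted in the totals are not reported here.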

Additional observations from a re-analysis of the deposited data

Results flagged for a closer look

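KCNN1 was the channel gene whose difference between libraries had intervals on opposite sides of 0 in 2 classes. Its log2 ratio of OTX2CRISPR over CTRL was 0.53 in restricted RPC-like cells (147 and 102 CPM, interval 0.28 to 0.78) and -0.71 in multipotent RPC-like cells (37.8 and 61.9 CPM, interval -1.33 to -0.12). The difference between the 2 classes was not tested, and with 1 library per condition the intervals cover counting error only.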

How the results depend on the processing

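The limits are those of 1 library per condition, of sparse counts and of classes rebuilt from the counts. Of the 110 alternative values for counts, medians and shares 88 stayed within the limits set for them, as did 275 of the 293 for single named genes, and no called ratio changed sign. With a minimum of 200 UMIs 14 of 37 members were higher, against 5.52% of all genes, 6 were lower, against 3.51%, and the median log2 ratio was 0.46, and without cone-like and BRINP2/CRABP1-like cells, an alternative chosen after seeing the data, 3 were lower. Scaling by the median gene ratio moved the median of all genes by up to 0.18 on the log2 scale (BRINP2/CRABP1-like over progenitor-like cells).

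Of the counts within a class, that in cone-like cells was 1 with 20 principal components, with channel genes and markers kept, and without the 4% of cells with the most UMIs. With genes kept it was 4 in HC1-like and 1 in HC2-like cells. Without the deepest 4% of cells it was 1 in HC2-like and 3 in RGC-like cells. The shares of all genes within a class were not counted at these settings. At resolution 0.4 both horizontal cell classes fell into 1 cluster, so their comparisons gave no value, and KCNG3 had none without cone-like cells. When a positive cell needed 2 UMIs, the shares were 0% for KCNG3 in CTRL cones, 0.391% for KCNK9 in HC1-like, 0.696% for KCNC1 in HC2-like, 1.19% for CACNA1B in RGC-like, 0.168% for CACNA1H in BRINP2/CRABP1-like, 1.10% for KCNT2 in restricted and 0.304% for CACNA2D2 in multipotent RPC-like cells. Thinning to 2000 UMIs left out cells with fewer, among them 501 of 1803 BRINP2/CRABP1-like and 47 of 514 RGC-like cells of OTX2CRISPR. In the cells left, the shares were 16.5% for KCNC1, 6.42% for CACNA1B, 6.30% for CACNA1H, 25.7% for KCNT2 and 8.77% for CACNA2D2. These shares depend on how many UMIs were kept per cell and asked for. Why the counts within a class changed was not tested. No paired analysis was possible because each condition has 1 library.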
